A study of Mus musculus with 3 samples.

Results

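The genes described here were 10 mouse genes that either encode the TCF/LEF factors of the WNT pathway or are well-known targets of it: Lef1, Tcf7, Tcf7l1, Tcf7l2, Axin2, Sp5, Nkd1, Notum, Rnf43 and Znrf3. For each gene, every ATAC-seq peak that overlapped its body or the 50 kb on either side (GENCODE M21, mm10) was taken from 3 lists of broad peaks. The windows held 251 of 129843 peaks in SOX2-ON, with 278 of 131520 in SOX2-OFF and 351 of 130348 in CEpiLC. After peaks of the 3 lists that touched were merged, this came to 455 of 219473 regions.

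WNT ligands act by halting the breakdown of β-catenin, which then enters the nucleus and binds TCF/LEF proteins already bound to DNA. In most tissues TCF7L1 acts mainly as a repressor, LEF1 and TCF7 act mainly as activators, and TCF7L2 can do either. Many direct targets, such as Axin2, Nkd1, Notum, Rnf43 and Znrf3, encode inhibitors of the pathway, and these genes are widely read as markers of WNT activity. In the epiblast, WNT signalling drives cells towards the primitive streak and the caudal epiblast, while SOX2 is a factor of the pluripotent and neural states.

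ATAC-seq measures how open chromatin is to a transposase, and was performed on 50000 cells of each of 3 samples of mouse ES cells of the line HM1. All samples were differentiated for 72 h in medium with 10 ng/ml bFGF and 5 µM LGK974, an inhibitor of WNT secretion, and all received CHIR99021, a GSK3 inhibitor that switches on WNT signalling inside the cell, from day 2. SOX2-ON and SOX2-OFF were both Sox2-/- TetON cells, in which a doxycycline-driven Sox2 transgene stands in for the deleted gene. Doxycycline (1 µg/ml before differentiation) was kept on in SOX2-ON and withdrawn in SOX2-OFF, whereas CEpiLC were wild-type for Sox2 and had no doxycycline. Per the study's methods, the wild-type control was the parent HM1 TetON line, which carries the reverse transactivator in Rosa26. The Sox2-/- line, whose 2 samples are called the Sox2 TetON samples here, was made from it through picked clones, with the transgene in the Hprt locus, and stands for those clones only. Doxycycline and SOX2 level cannot be told apart in the contrast of SOX2-ON with SOX2-OFF, and neither can the transgene, the picked clone and the genotype in that with CEpiLC. No sample lacked CHIR99021, so nothing here measures a response to WNT itself. Each group had 1 sample, so no test between groups was possible and none was made.

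Peaks were not evenly spread over the chromosomes. Chromosome 6 held 3.12 times and 3.29 times the median peak density of the 16 other autosomes in SOX2-ON and SOX2-OFF, but 0.930 times in CEpiLC. On chromosome 8 the values were 3.05, 3.00 and 1.01 times. Chromosome 11 was at 1.45 and 1.49 times in the Sox2 TetON samples and at 3.98 times in CEpiLC. Of the 10 genes, 7 lie on these chromosomes (Axin2, Tcf7, Notum, Rnf43 and Znrf3 on 11, Tcf7l1 on 6, Nkd1 on 8), and for them a difference between the lines and the excess of the chromosome cannot be told apart. Lef1 (chromosome 3), Tcf7l2 (19) and Sp5 (2) lie elsewhere. Peak strength also differed in scale, the peak at rank 20000 having a −log10 p of 26.4 in SOX2-ON against 21.2 in SOX2-OFF and 10.6 in CEpiLC, so strength was compared by rank. A region's rank is given below as the place of its strongest peak in its list, in percent counted from the strongest ("top 5%" means that 5% of the list was as strong or stronger). Promoter peaks of Pou5f1, Sox2 and Fgf5, which mark the epiblast, and of T, Cdx2 and Nkx1-2, which mark the caudal epiblast, were in all 3 lists. The liver gene Alb had no promoter peak in any list, the leukocyte gene Ptprc had 1 weak peak in SOX2-ON (top 65.6%) only, and the astrocyte gene Gfap had a promoter region in all 3.

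To show what lies under these peaks, the best-ranked region of each gene that was in all 3 lists and held the TCF/LEF letters CTTTGAT outside an exon was read from the reference genome (GRCm38, the sequence of mm10, a C57BL/6 genome where HM1 is a 129 line). Of the 10 stretches so chosen, 8 are printed 5′ to 3′ on the strand of their gene, with matches in capitals: CTTTGAT or its complement ATCAAAG for TCF/LEF, and CATTGT for SOX factors. The 4 stretches at promoter regions come from Axin2 (chr11:108921194-108921285, plus strand, starting directly after an annotated exon), Tcf7 (chr11:52283321-52283421, minus strand), Sp5 (chr2:70474772-70474872, plus strand) and Nkd1 (chr8:88520515-88520615, plus strand). The other 4 come from distal regions, 25.6 kb upstream of the Lef1 start (chr3:131084862-131084962, plus strand), 65.0 kb into Tcf7l2 (chr19:55806743-55806843, plus strand), 47.1 kb into Rnf43 (chr11:87709774-87709874, plus strand) and 33.0 kb into Znrf3 (chr11:5411774-5411874, minus strand).
Axin2: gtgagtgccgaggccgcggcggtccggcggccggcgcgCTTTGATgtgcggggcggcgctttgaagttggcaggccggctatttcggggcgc
Tcf7: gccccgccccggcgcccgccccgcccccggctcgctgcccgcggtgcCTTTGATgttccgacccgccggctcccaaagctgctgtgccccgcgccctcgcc
Sp5: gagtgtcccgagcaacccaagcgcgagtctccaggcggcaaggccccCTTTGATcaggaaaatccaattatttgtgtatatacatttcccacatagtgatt
Nkd1: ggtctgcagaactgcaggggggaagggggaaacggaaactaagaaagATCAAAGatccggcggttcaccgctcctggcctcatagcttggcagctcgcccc
Lef1: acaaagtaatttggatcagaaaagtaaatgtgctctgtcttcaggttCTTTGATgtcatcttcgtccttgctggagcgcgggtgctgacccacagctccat
Tcf7l2: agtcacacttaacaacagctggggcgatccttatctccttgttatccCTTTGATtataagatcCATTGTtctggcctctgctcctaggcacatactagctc
Rnf43: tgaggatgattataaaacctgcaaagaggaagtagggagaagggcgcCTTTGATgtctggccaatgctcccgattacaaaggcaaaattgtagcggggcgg
Znrf3: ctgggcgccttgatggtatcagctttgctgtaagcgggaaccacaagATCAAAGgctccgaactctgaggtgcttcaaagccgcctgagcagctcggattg

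The Tcf7l2 stretch was the only one of the 8 that also held the SOX letters. The stretch chosen for Tcf7l1 was 100% repeat-masked in the reference and the one for Notum lay 46.1 kb upstream of the gene, and neither is printed. Promoter regions of Axin2, Tcf7, Sp5 and Nkd1 each held 2 TCF/LEF matches and that of Notum held 1, whereas those of Lef1, Tcf7l1, Tcf7l2, Rnf43 and Znrf3 held none. They came to between 1535 bp (Nkd1) and 4575 bp (Tcf7l2) per gene, and the same count over other coding promoters was not made. A match lay in the central 200 bp of 1 of the 14 promoter regions in all 3 lists (7.14%, 1.27 to 31.5%). In the central 200 bp of the regions in all 3 lists, the letters were found in 7 of 152 near these genes (4.61%, Wilson 95% interval 2.25 to 9.20%) and in 2.87% of all such regions, both strands searched. The SOX letters were found in 11.2% (7.10 to 17.2%) against 8.02%, the T-box letters AGGTGTGA in 0 of 152 (up to 2.46%) against 0.853%, and the CDX letters CCATAAA in 1.97% against 1.66%. With 200 bp the interval for each of the 4 motifs held the value over all regions. With the central 500 bp that for TCF/LEF did not, at 12.5% (8.15 to 18.7%) against 7.0%. A match is a run of letters and not a binding site.

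The first question was whether the promoters of WNT genes were open in all 3 samples. They were: each of the 10 genes had a promoter region (within 1 kb of an annotated start) in all 3 lists, against 72.1% of 21938 coding genes. The median place of the best promoter region was the top 5.00% in SOX2-ON, with 5.67% in SOX2-OFF and 5.94% in CEpiLC for the 10 genes, close to the medians of 5.94%, 5.83% and 6.13% over the 15810 coding genes with such a promoter. The same held for the pathway's other parts. Of 18 genes of the β-catenin destruction complex and its cofactors, such as Ctnnb1, Apc and Gsk3b, 18 had a promoter region in all 3 lists, and of 10 further feedback or target genes, such as Dkk1, Lgr5 and T, 10 did.

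**Figure D1:**
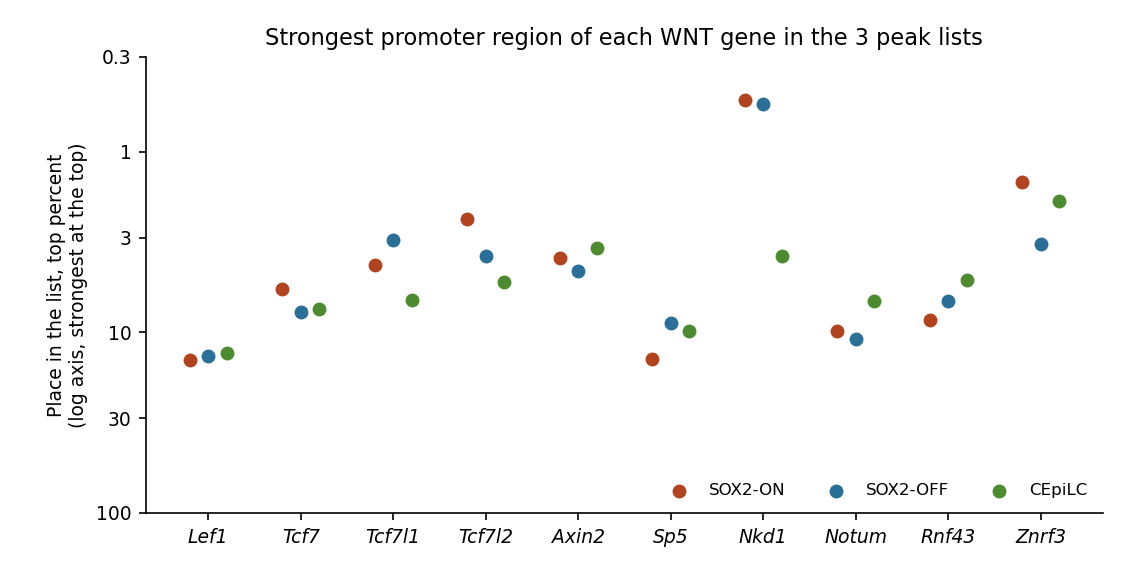
Place of the strongest promoter region of each gene in the SOX2-ON, SOX2-OFF and CEpiLC peak lists (vertical log axis in percent of the list, strongest at the top; 1 point per gene and list, 1 sample per group). Nkd1 stood highest in both Sox2 TetON samples, at the top 0.518% and 0.545%, but at 3.77% in CEpiLC it came after Znrf3 (1.88%) and Axin2 (3.43%), and Lef1 had 14.3%, 13.5% and 13.1%.

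The second question was which regions around these genes were open in which samples. Of the 455 regions, 152 (33.4%, 29.2 to 37.9%) were in all 3 lists, against 27.0% of all regions. Those that only SOX2-ON lacked, being in the SOX2-OFF and CEpiLC lists, numbered 49 (10.8%, 8.24 to 14.0%), against 6.92%. Regions shared by both Sox2 TetON samples and missing from CEpiLC numbered 31 (6.81%), against 10.5%, and those that only SOX2-OFF lacked 20 (4.40%), against 3.28%. Regions seen in a single list numbered 42 in SOX2-ON (9.23%, against 16.9%), 43 in SOX2-OFF (9.45%, against 15.1%) and 118 in CEpiLC (25.9%, against 20.3%). The backgrounds of the Sox2 TetON classes include the excess on chromosomes 6 and 8. On chromosome 11, 6.25% of the member regions were in SOX2-ON only (3.69 to 10.4%), against 4.78% of that chromosome's regions. The share in SOX2-OFF only was 5.77% (3.33 to 9.81%), against 3.40%, so both intervals held the background. That in the Sox2 TetON samples alone was 2.88% (1.33 to 6.15%), against 1.07%. These 3 backgrounds are lowered by the 59.9% of chromosome 11 regions that were in CEpiLC alone. Of regions within 50 kb of any coding gene, as these are by rule, 29.8% were in all 3 lists, inside the interval of the 152, and 7.13% were lacking only from SOX2-ON, below the interval of the 49. At Lef1, Tcf7l2 and Sp5, 37 of 129 regions (28.7%) were in all 3 lists, against 30.8% of all regions on chromosomes 2, 3 and 19. Intervals cover counting error only, and neighbouring regions of a gene are not independent.

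**Figure D2:**
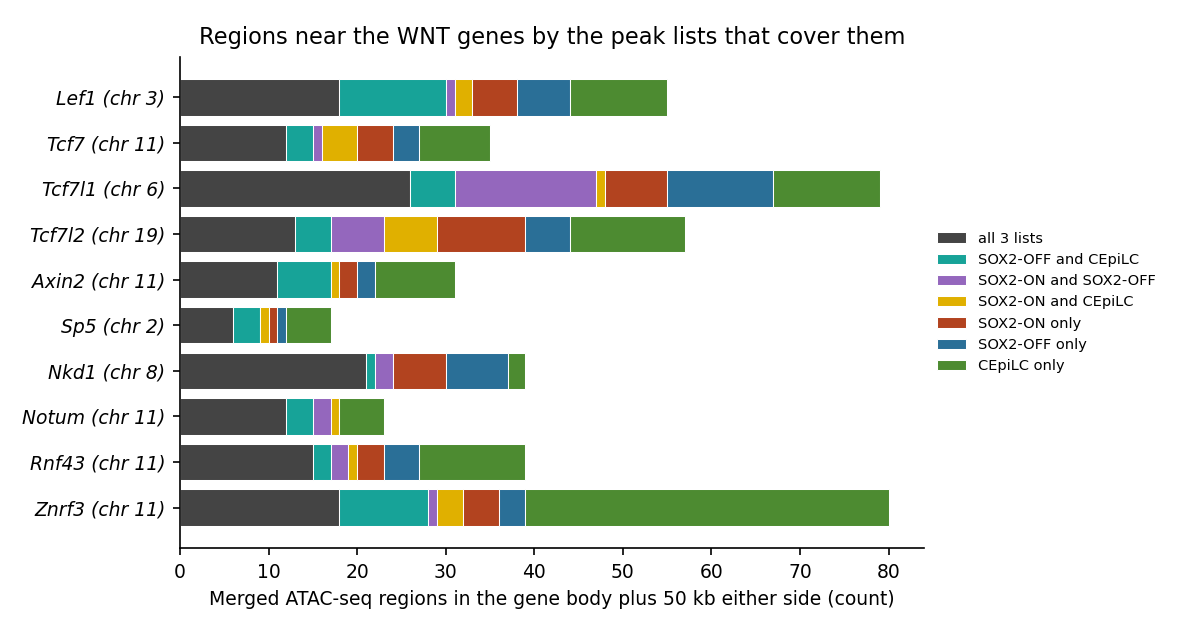
Merged ATAC-seq regions in the window of each gene (horizontal axis, count), split by the lists that cover them (colours), with the gene's chromosome beside its name. Lef1 had the most regions that only SOX2-ON lacked, 12 of 55 (21.8%, against 9.87% of chromosome 3). Tcf7l1 had 16 of 79 in the Sox2 TetON samples alone (20.3%, against 27.8% of chromosome 6). Znrf3 had 41 of 80 in CEpiLC alone (51.2%, against 59.9% of chromosome 11).

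Each of the 10 genes had at least 1 region that only SOX2-ON lacked, against 61.0% of coding genes (82.2% of those on chromosome 11, which holds 5 of the 10, and 60.4% of those off chromosomes 6, 8 and 11), although their windows were also richer in peaks (median 12.2, 14.9 and 18.5 peaks per 100 kb in SOX2-ON, SOX2-OFF and CEpiLC, against 8.01, 8.40 and 9.06 over coding genes). The windows held 17 (Sp5) to 80 (Znrf3) regions, and the coding genes were not matched for window length or region count. A window with more regions has more chances to hold 1 of this kind. On chromosome 11, 24 of 208 regions (11.5%) were lacking only from SOX2-ON, against 7.0% of that chromosome's regions. CEpiLC alone held 75 of the 208 (36.1%), against 59.9%. All classes are counted out of the same total, so the 59.9% lowers the 7.0% set beside the 24. The 2 gaps are therefore not independent. At Lef1, Tcf7l2 and Sp5, which lie off the 3 chromosomes with excess peaks, 19 of 129 regions (14.7%, 9.64 to 21.9%) were lacking only from SOX2-ON, against 8.69% of the regions of chromosomes 2, 3 and 19. Of those 19, 12 were at Lef1, and without it 7 of 74 (9.46%) were of this kind at Tcf7l2 and Sp5 and 37 of 400 (9.25%) at the 9 other genes together.

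Most regions of this kind were weak, near these genes and elsewhere. Of the 49, 41 (83.7%) were past the top 50% in at least 1 of the lists that held them, against 76.7% of all 15183 such regions. Their median place was the top 66.6% in SOX2-OFF and 57.9% in CEpiLC, against 59.8% and 55.7%. The TCF/LEF letters were in the central 500 bp of 5 (10.2%), against 10.3% of all such regions. Regions lacking only from SOX2-ON made up 9.33% of 450 regions (14 of 18 genes) for the destruction complex and cofactors and 7.82% of 179 (6 of 10 genes) for the other feedback and target genes.

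Strong peaks, the strongest 20000 of a list, are less apt to be missed at the edge of detection. The 10 windows held 44 in SOX2-ON against 51 in SOX2-OFF and 51 in CEpiLC (17.5%, 18.3% and 14.5% of their peaks, against 15.4%, 15.2% and 15.3% of the lists). SOX2-ON had 2 that SOX2-OFF lacked (5.00% of all its strong peaks were so) and 2 that CEpiLC lacked (8.33%). SOX2-OFF had 1 that SOX2-ON lacked (1.26%) and 0 that CEpiLC lacked (1.04%). CEpiLC had 1 that SOX2-ON lacked (1.34%) and 0 that SOX2-OFF lacked (0.605%). The 6 cases fell in 5 regions, 3 of them at Tcf7l2.

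The middle 200 bases of 4 of these regions are printed from the reference genome. Capitals mark TCF/LEF matches and the octamer ATGCAAAT or its complement ATTTGCAT, the letters bound by OCT factors, which were added to the search after these sequences had been seen. They were strong in SOX2-OFF or CEpiLC and missing from SOX2-ON at Axin2 (13.4 kb upstream, chr11:108906863-108907062, plus strand) and within Tcf7l2 (50.8 kb downstream of its start, chr19:55792542-55792741, plus strand). They were strong in SOX2-ON and missing from CEpiLC 29.0 kb upstream of Tcf7l2 (chr19:55712740-55712939, plus strand) and in a Znrf3 intron 120 kb from its start (chr11:5324265-5324464, minus strand).
Axin2 upstream: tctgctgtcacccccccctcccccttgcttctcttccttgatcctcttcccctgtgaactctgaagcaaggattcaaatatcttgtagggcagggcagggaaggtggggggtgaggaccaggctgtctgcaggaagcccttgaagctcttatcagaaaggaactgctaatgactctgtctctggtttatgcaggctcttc
Tcf7l2 intron: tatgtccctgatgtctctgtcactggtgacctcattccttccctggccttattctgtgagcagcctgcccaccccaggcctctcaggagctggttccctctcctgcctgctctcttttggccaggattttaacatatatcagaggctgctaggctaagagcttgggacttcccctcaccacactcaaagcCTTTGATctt
Tcf7l2 upstream: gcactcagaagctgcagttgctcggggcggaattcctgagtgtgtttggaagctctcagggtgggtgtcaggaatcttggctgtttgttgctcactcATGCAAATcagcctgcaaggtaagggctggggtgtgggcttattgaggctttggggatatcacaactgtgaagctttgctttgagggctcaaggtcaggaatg
Znrf3 intron: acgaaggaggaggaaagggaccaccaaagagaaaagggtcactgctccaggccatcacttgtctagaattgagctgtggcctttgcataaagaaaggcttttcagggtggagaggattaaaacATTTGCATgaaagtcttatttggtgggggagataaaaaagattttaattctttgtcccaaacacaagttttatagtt

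Both regions that were strong in SOX2-ON and missing from CEpiLC held the octamer, and neither of the other stretches did. Nor did the region of the 5 that is not printed, 161 kb into Tcf7l2, which was strong in SOX2-ON and missing from SOX2-OFF. Over all regions the octamer lay in the central 200 bp of 41 of 1666 that were strong in SOX2-ON and missing from CEpiLC (2.46%, 1.82 to 3.32%) and of 1.16% of 19936 that were strong in SOX2-ON. The SOX letters were in 23.6% of the same 1666 regions, in 7.04% of the 19936 and in none of the 4 stretches printed here.

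The third question was whether regions open in all 3 samples were equally strong. Of the 152, 55 differed in place by at least 20 percentage points between any pair of lists, against 35.7% of all such regions. SOX2-OFF stood at least 20 points above SOX2-ON at 22 (14.5%, against 13.6%) and SOX2-ON above SOX2-OFF at 10 (6.58%, against 6.31%), so both shares were near the background. CEpiLC stood above SOX2-ON at 32 (21.1%, against 15.1%) and SOX2-ON above CEpiLC at 10 (6.58%, against 10.1%). SOX2-OFF stood above CEpiLC at 13 (8.55%, against 10.7%) and CEpiLC above SOX2-OFF at 10 (6.58%, against 7.42%). The count of CEpiLC over SOX2-ON was uneven across chromosomes, being 16 of 68 (23.5%, against 22.7%) on chromosome 11, 6 of 37 (16.2%, against 15%) on chromosomes 2, 3 and 19, 8 of 21 (38.1%, against 9.87%) on chromosome 8, where Nkd1 lies, and 2 of 26 (7.69%, against 10.7%) on chromosome 6. It also turned on the measure of strength. Ranked by fold enrichment in place of −log10 p, SOX2-ON stood higher at 27 (17.8%, against 11.7%) and CEpiLC at 24 (15.8%, against 15.3%). Ranked within the chromosome, CEpiLC stood higher at 41 (27%, against 19.2%) and SOX2-ON at 16 (10.5%, against 11.7%). Neither ranking was split by chromosome, and 68 of the 152 regions lie on chromosome 11, against 4632 of all 59287. Their backgrounds are therefore not like ones. At Axin2 26.5 kb upstream, ranking within the chromosome moved CEpiLC from the top 24.0% to 13.8% and SOX2-ON from 23.0% to 28.3%. With the same ranking the Nkd1 gaps 33.0, 25.9 and 13.5 kb upstream and 18.9 and 49.1 kb downstream fell below 20 points. Those 30.3, 58.3 and 116 kb downstream held.

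**Figure D3:**
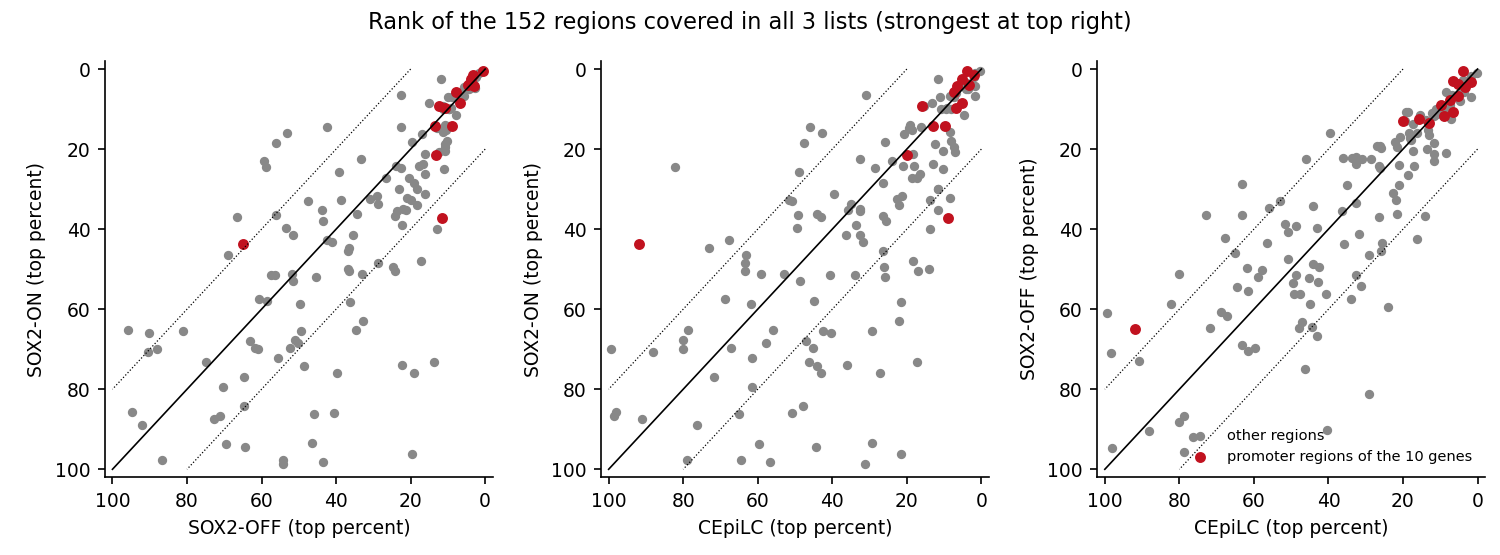
Place of each of the 152 regions covered in all 3 lists, in percent of the list with the strongest at the top right, for SOX2-ON against SOX2-OFF, SOX2-ON against CEpiLC and SOX2-OFF against CEpiLC; red points are promoter regions of the 10 genes, the solid line marks equal place and dotted lines a difference of 20 points. Most promoter regions gathered at the strong end near the line, apart from the inner starts of Axin2 and Rnf43, and most of the points far from it were weak in at least 1 list.

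Median peak widths in the windows were 656 bp in SOX2-ON, with 870 bp in SOX2-OFF and 593 bp in CEpiLC, against 621, 741 and 526 bp over the lists. At 63 of the 152 regions, widths differed at least 2-fold between any pair of lists, against 36.4% of all such regions. SOX2-OFF was at least 2-fold wider than SOX2-ON at 27 (17.8%, against 14.0%) and than CEpiLC at 29 (19.1%, against 18.6%).

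Lef1 (chr3:131110471-131224356, plus strand) encodes a TCF/LEF factor that is itself induced by WNT in many tissues. Its window held 55 regions, with 26 peaks in SOX2-ON against 38 in SOX2-OFF and 45 in CEpiLC. Of the 55, 18 were in all 3 lists (32.7%, against 28.9% of chromosome 3). The promoter region was alike in the 3 samples, at the top 14.3% in SOX2-ON, with 13.5% in SOX2-OFF and 13.1% in CEpiLC. The rest of the window was not. Regions that only SOX2-ON lacked numbered 12 (21.8%, 12.9 to 34.4%), against 9.87% of the regions of chromosome 3. Each of the 12 was past the top 50% in SOX2-OFF, and none held a strong peak in either list. Only 1 region was in SOX2-ON and SOX2-OFF alone (1.82%, against 6.44% on chromosomes 2, 3 and 19). The clearest single case was an intronic region 7.84 kb from the start (chr3:131117576-131119053), where SOX2-ON had a narrow peak of 214 bp at the top 73.2%. At the same place SOX2-OFF had 1478 bp at the top 13.6% and CEpiLC 1371 bp at the top 17.3%. A region 45.3 kb upstream went the same way, at the top 73.9% in SOX2-ON against 22.3% in SOX2-OFF and 36.1% in CEpiLC. Other regions did not: 8.19 kb upstream SOX2-OFF was the low sample, at the top 42.5% against 14.5% in SOX2-ON and 16.3% in CEpiLC. An intronic region 37.5 kb from the start was in SOX2-ON alone, at the top 20.1%. The best-ranked Lef1 regions off the promoter were the one 25.9 kb upstream whose TCF/LEF match is printed above (top 10.1%, 9.63% and 8.10%) and one 3.61 kb upstream (top 18.8%, 10.9% and 12.3%), both in all 3 lists. Among the regions in all 3 lists, SOX2-OFF and CEpiLC were farthest apart in a weak one 122 kb downstream, at the top 61.0% and 99.4%. The strongest region of the window, 161 kb downstream, was the promoter of the neighbouring gene Hadh. The median place of the 18 shared regions was the top 52.4% in SOX2-ON, with 28.6% in SOX2-OFF and 32.4% in CEpiLC.

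**Figure D4:**
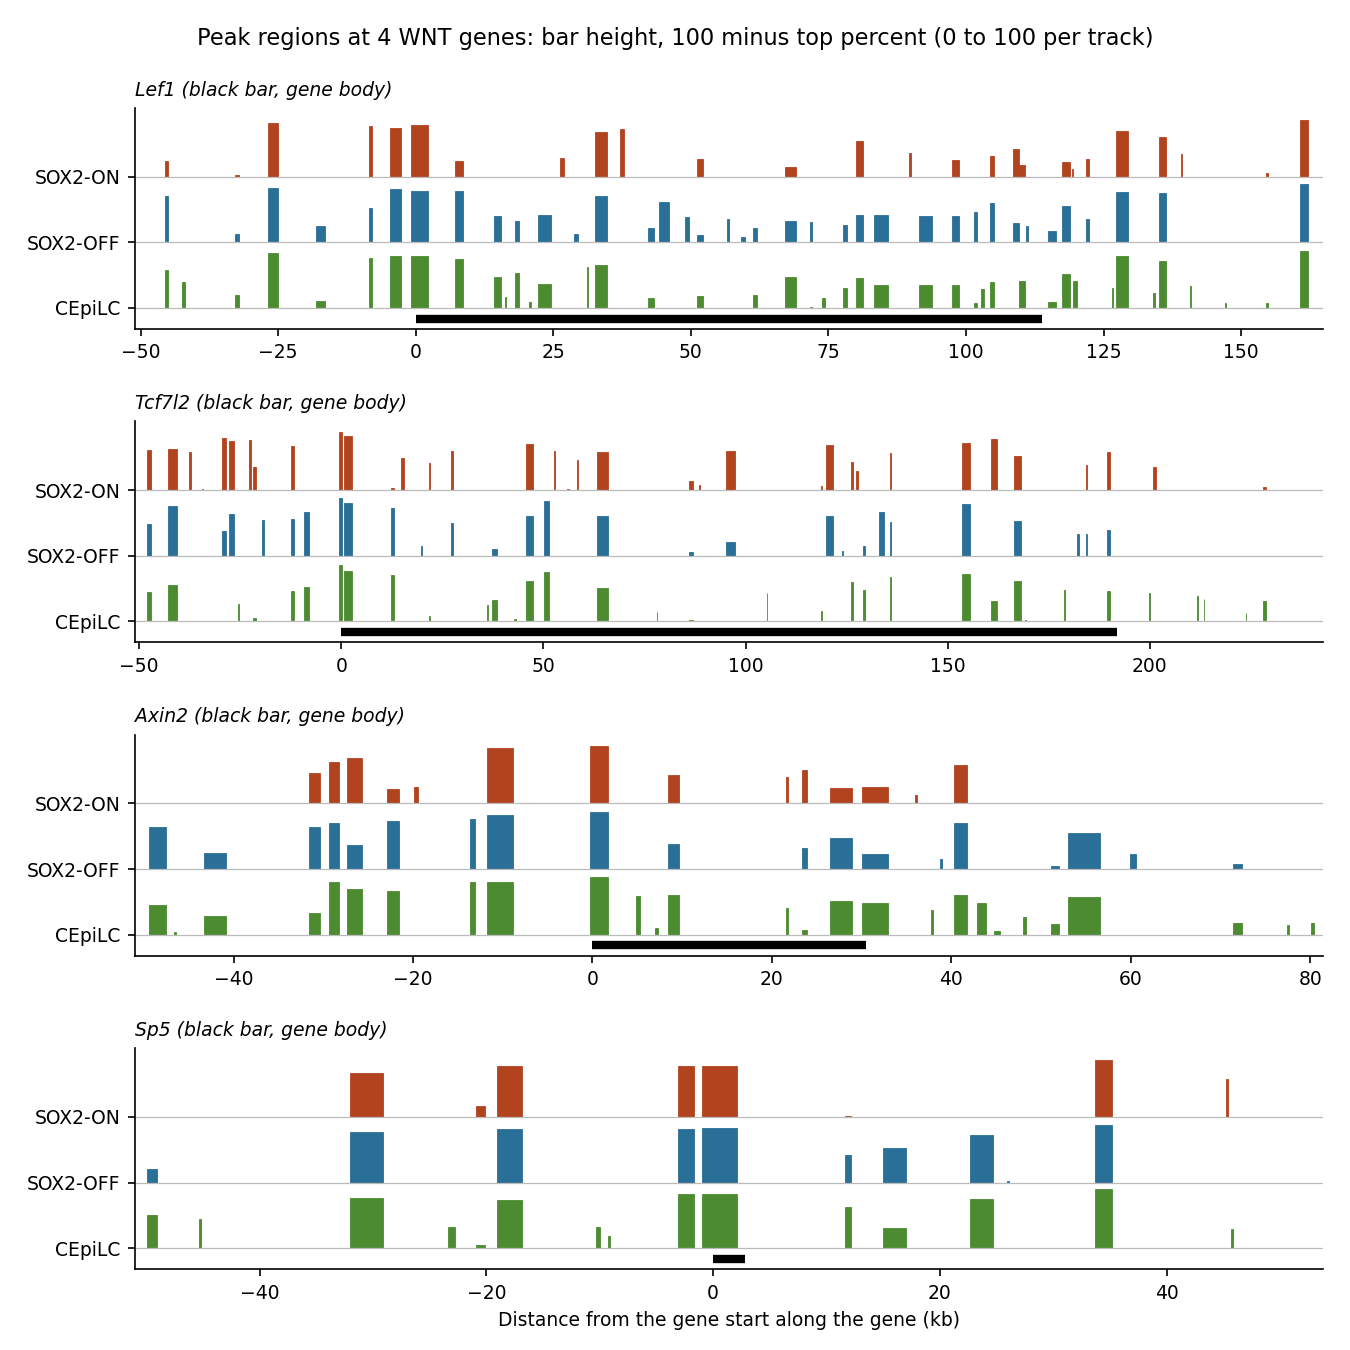
Merged regions at Lef1, Tcf7l2, Axin2 and Sp5 by distance from the gene start (horizontal axis, kb along the gene, black bar for the gene body), with 1 track per list; bar width is that of the merged region and bar height is 100 minus the top percent, so the strongest regions are tallest. Within the Lef1 body SOX2-OFF and CEpiLC had many low regions that SOX2-ON lacked, while the Tcf7l2 tracks differed in both directions.

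Tcf7 (chr11:52252371-52283014, minus strand), the gene of the factor TCF1, showed little difference. Its promoter region, which holds the match printed above, was at the top 5.74% in SOX2-ON against 7.74% in SOX2-OFF and 7.44% in CEpiLC. Its window held 35 regions. Of these, 12 were in all 3 lists (34.3%, against 19.4% of chromosome 11) and 3 were lacking only from SOX2-ON (8.57%, against 7.0%). Both backgrounds are lowered by the 59.9% in CEpiLC alone. Of the 12, only 2 differed by 20 points between any pair of lists. The larger of these differences was 16.7 kb upstream, at the top 63.1% in SOX2-ON, with 32.7% in SOX2-OFF and 22.0% in CEpiLC. SOX2-OFF was the low sample 14.2 kb into the gene, at the top 66.6% against 37.1% in SOX2-ON and 43.0% in CEpiLC, but ranked by fold enrichment it stood above CEpiLC by 16.5 points. The strongest region of the window was the promoter of Skp1a, 51.5 kb away, and the next after the Tcf7 promoter was 58.6 kb away (top 14.0%, 10.7% and 19.1%).

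Tcf7l1 (chr6:72626378-72789254, minus strand) encodes the factor that represses WNT targets in pluripotent cells. SOX2-ON stood at least 20 points above SOX2-OFF at 3 of its 26 regions in all 3 lists. That was the highest count of the 10 genes but not the highest share, as Axin2 had 2 of 11. The Tcf7l1 promoter region was at the top 4.26% in SOX2-ON against 3.08% in SOX2-OFF and 6.61% in CEpiLC. Of 79 regions, 26 were in all 3 lists (32.9%, against 17% of chromosome 6). In the Sox2 TetON samples alone were 16 (20.3%, against 27.8%), and only SOX2-ON lacked 5 (6.33%, against 1.81%). These backgrounds are shares of a total that holds the excess of the Sox2 TetON samples. Of the 26, SOX2-ON stood above SOX2-OFF by that margin at 3 (11.5%, against 5.78% on chromosome 6) and above CEpiLC at 6 (23.1%, against 17.4%), and SOX2-OFF stood above SOX2-ON at 0 (against 15.9%). The 3 lay in introns of the gene. The one 58.7 kb from the start (chr6:72729779-72731273) was at the top 24.5% in SOX2-ON, with 58.7% in SOX2-OFF and 82.2% in CEpiLC and peaks of 1495, 609 and 251 bp. The next, at 77.5 kb, was at the top 18.4%, 56.1% and 47.7% and the last, at 89.6 kb, at the top 15.9%, 53.2% and 42.8%, so SOX2-ON stood highest in each. Between SOX2-OFF and CEpiLC the widest gap at a region in all 3 lists lay at 92.0 kb, where CEpiLC was at the top 29.2% while the Sox2 TetON samples were at 65.4% and 81.2%. Inner starts of Tcf7l1 had only weak regions, 1 in the Sox2 TetON samples (top 91.0% and 82.8%) and 1 in CEpiLC (top 62.7%). The best-ranked regions after the promoter were the promoters of Tgoln1 and of Elmod3 and Retsat, 173 and 191 kb downstream. Because the Sox2 TetON samples share the excess on chromosome 6, the lower values of CEpiLC cannot be told apart from it. Whether this excess had a part in the gaps between SOX2-ON and SOX2-OFF was not tested.

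Tcf7l2 (chr19:55741820-55933654, plus strand) encodes the TCF factor best known from gut and metabolic tissue. Its promoter region was at the top 2.36% in SOX2-ON against 3.81% in SOX2-OFF and 5.27% in CEpiLC, and a second start region 1.67 kb into the gene followed at the top 9.21%, 12.4% and 15.8%. Of 57 regions, 13 were in all 3 lists (22.8%, against 35.3% of chromosome 19), and the rest were spread over every class. In SOX2-OFF and CEpiLC were 4 (7.02%, against 7.25% of chromosome 19). In SOX2-ON and CEpiLC were 6 (10.5%, against 3.28% of all regions). The Sox2 TetON samples held 6 (10.5%, against 10.5% of all regions) and SOX2-ON alone 10 (17.5%, against 16.9%). Its distal regions differed in opposite directions. The intronic region at 50.8 kb (chr19:55791990-55793293) was at the top 8.97% in SOX2-OFF and 16.7% in CEpiLC, 1257 and 1304 bp wide, with no peak in SOX2-ON. Another intronic region at 12.8 kb (chr19:55754217-55754924) was in all 3 lists, at the top 96.2% in SOX2-ON but 19.5% and 21.6% in the others. Conversely, the region 29.0 kb upstream (chr19:55712406-55713273) was at the top 12.8% in SOX2-ON, 59.0% in SOX2-OFF and absent from CEpiLC. The intronic region at 161 kb (chr19:55902566-55903899) was at the top 15.0% in SOX2-ON and 66.6% in CEpiLC and had no peak in SOX2-OFF. An inner start at 155 kb was at the top 21.5%, 13.1% and 20%, but its peak was widest in SOX2-ON, 1977 bp against 874 and 1276 bp. Of the regions in all 3 lists, the one with the widest gap between SOX2-OFF and CEpiLC lay 41.8 kb upstream, at the top 16.1% and 39.6%, with SOX2-ON at 31.2%. No other coding gene had a body in this window.

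Axin2 (chr11:108920349-108950783, plus strand) encodes a scaffold of the β-catenin destruction complex and is widely used to report WNT activity. Its promoter region was strong and alike in all samples, at the top 3.86% in SOX2-ON, with 4.60% in SOX2-OFF and 3.43% in CEpiLC and widths of 2008, 1888 and 2046 bp. A region 10.3 kb upstream was next, at the top 6.90%, 9.86% and 11.1%, and one at 28.9 kb upstream followed at 29.9%, 23.1% and 11.7%. The larger differences lay elsewhere. The region at 13.4 kb (chr11:108906654-108907271) had peaks of 500 bp at the top 15.8% in SOX2-OFF and 618 bp at the top 10.9% in CEpiLC, and none in SOX2-ON. The region at 22.3 kb (chr11:108897433-108898734) was at the top 76.0% in SOX2-ON against 19.1% in SOX2-OFF and 27.1% in CEpiLC. Beside them, at 26.5 kb (chr11:108892953-108894663), SOX2-OFF was the low sample, at the top 59.5% against 23.0% in SOX2-ON and 24.0% in CEpiLC. An inner start of Axin2 at 23.7 kb went from the top 43.6% in SOX2-ON to 65.0% in SOX2-OFF and 91.8% in CEpiLC. In all, 6 of 31 regions (19.4%, 9.19 to 36.3%) were lacking only from SOX2-ON, against 7.0% of those on chromosome 11. The 59.9% of chromosome 11 regions in CEpiLC alone lowers that 7.0%. No other coding gene had a body in the window.

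Sp5 (chr2:70474923-70477729, plus strand) encodes a zinc finger factor that acts downstream of WNT in the primitive streak. Its promoter region was at the top 14.1% in SOX2-ON, with 8.86% in SOX2-OFF and 9.79% in CEpiLC, and although its rank was lowest in SOX2-ON its width there, 3064 bp, exceeded the 2288 and 2283 bp of the others. The region 2.40 kb upstream followed the same order, at the top 14.3%, 9.70% and 10.1%, with 637 bp in SOX2-ON against 1430 and 1450 bp. Downstream of the gene, the region at 23.6 kb (chr2:70497549-70499594) was at the top 20% in SOX2-OFF and 18.4% in CEpiLC and had no peak in SOX2-ON. At 11.9 kb the places were the top 98.7% in SOX2-ON against 54.3% in SOX2-OFF and 31.2% in CEpiLC. In total 3 of 17 regions were lacking only from SOX2-ON (17.6%, 6.19 to 41.0%), against 8.39% of those on chromosome 2. The window also holds Erich2, whose promoter was its strongest region.

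The 4 remaining genes encode feedback inhibitors. Nkd1 (chr8:88521354-88594884, plus strand), whose protein binds Dishevelled, had the strongest promoter of the 10 genes in both Sox2 TetON samples, at the top 0.518% in SOX2-ON and 0.545% in SOX2-OFF, but in CEpiLC, at 3.77%, it came after Znrf3 and Axin2. The promoter region was widest in CEpiLC, 1513 bp against 1146 and 1157 bp. Of its 39 regions 21 were in all 3 lists (53.8%, against 19% of chromosome 8) and 1 was lacking only from SOX2-ON (2.56%, against 2.03%). These backgrounds are shares of a total that holds the excess of the Sox2 TetON samples. The next best regions, 106 and 82.9 kb downstream, lay past the gene and were alike in the 3 samples (top 5.02%, 4.35% and 3.71%, and top 6.85%, 5.64% and 8.36%). Of these 21, SOX2-ON and SOX2-OFF differed most in an intron at 58.3 kb with 2 TCF/LEF matches, at the top 97.7% and 54.3%, where CEpiLC was at 64.5%. SOX2-OFF and CEpiLC differed most, among the same 21, at 114 kb, near a start of Snx20, at the top 36.5% and 73.0%. Chromosome 8 had excess peaks in the Sox2 TetON samples. Ranked only among the peaks of chromosome 8, the promoter region was at the top 0.751% in SOX2-ON against 0.794% in SOX2-OFF and 4.42% in CEpiLC.

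Notum (chr11:120653788-120661175, minus strand) encodes a secreted enzyme that inactivates WNT ligands. Its promoter region was at the top 9.79% in SOX2-ON, with 10.8% in SOX2-OFF and 6.69% in CEpiLC. The region 5.73 kb upstream, which holds 2 TCF/LEF matches, went from the top 35.2% in SOX2-ON to 21.3% in SOX2-OFF and 11.7% in CEpiLC. At 34.4 kb upstream SOX2-OFF was the low sample, at the top 90.2% against 65.8% and 40.4%, but ranked by fold enrichment SOX2-OFF minus CEpiLC was -0.93 points and SOX2-ON stood above CEpiLC by 22.8. The window is dense in genes, and its 3 best-ranked regions were promoters of Aspscr1, of Mafg, and of Pcyt2 and Sirt7.

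Rnf43 (chr11:87662722-87735539, plus strand) and Znrf3 (chr11:5276324-5444847, minus strand) encode related ubiquitin ligases that remove WNT receptors from the cell surface. The Rnf43 promoter region was at the top 8.51% in SOX2-ON against 6.74% in SOX2-OFF and 5.12% in CEpiLC. An inner start of Rnf43 at 63.8 kb (chr11:87725539-87727494) differed far more, at the top 37.3% in SOX2-ON against 11.6% and 9.05%, although its width was similar (1790, 1703 and 1931 bp). The −log10 p of its strongest peak was 6.91 in SOX2-ON, with 32.9 in SOX2-OFF and 19.3 in CEpiLC. Over the 15 Rnf43 regions in all 3 lists, SOX2-OFF stood at least 20 points above SOX2-ON at 4 and CEpiLC at 5. The shares over chromosome 11 were 13.3% and 22.7%. SOX2-ON stood above neither at any, where the shares over chromosome 11 were 7.34% above SOX2-OFF and 5.72% above CEpiLC. Ranked by fold enrichment, 2 of the 5 turned, those at 26.0 and 92.2 kb. The widest gap among them between SOX2-ON and SOX2-OFF was at 92.2 kb, beside a start of Mir142hg, at the top 98.2% and 43.5%, with CEpiLC at 56.6%. That between SOX2-OFF and CEpiLC, again among the 15, was 32.8 kb upstream, in an intron of Hsf5, at the top 36.8% and 14.0%. A region 1.70 kb from the start was in CEpiLC alone, at the top 83.9%. The 2 best-ranked regions were promoters of Supt4a and Tspoap1.

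The Znrf3 promoter region was at the top 1.47% in SOX2-ON against 3.25% in SOX2-OFF and 1.88% in CEpiLC. Over its 18 regions in all 3 lists, SOX2-OFF and CEpiLC each stood above SOX2-ON at 4, beside the same 13.3% and 22.7% over chromosome 11. SOX2-ON stood above neither, beside 7.34% and 5.72%. Over the 68 such regions of all 5 genes on chromosome 11, SOX2-OFF stood above SOX2-ON at 17.6% and CEpiLC at 23.5%. At 5.88% and 1.47% of the 68, SOX2-ON stood above SOX2-OFF and CEpiLC. The widest gap among these 18 between SOX2-ON and SOX2-OFF was in an intron at 52.8 kb with 2 TCF/LEF matches, at the top 93.5% in SOX2-ON, 46.4% for SOX2-OFF and 29.2% for CEpiLC. In the same direction, the intronic region at 31.1 kb (chr11:5413451-5414069) was at the top 39.9% in SOX2-ON, with 12.8% in SOX2-OFF and 13.8% in CEpiLC, and the region at 32.8 kb with the TCF/LEF match printed above was at the top 19.5%, 10.7% and 7.33%. The opposite case was the intronic region at 120 kb (chr11:5323918-5324811), which had a peak of 894 bp at the top 10.5% in SOX2-ON, with a −log10 p of 50.3, and none in the other lists. Among the 18, SOX2-OFF and CEpiLC were farthest apart at 38.8 kb, at the top 72.8% and 90.9%. An inner start at 62.9 kb had weak peaks in SOX2-OFF (top 70.6%) and CEpiLC (top 67.2%), and the promoter of Kremen1 was the second-best region of the window. CEpiLC alone held 41 of the 80 Znrf3 regions (51.2%), below the 59.9% of chromosome 11. Regions within 1 kb of a start of another annotated gene made up 51 of the 455 regions over all windows, and those near a start of their own gene 18.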

How the data were processed

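ATAC-seq libraries of SOX2-ON, SOX2-OFF and CEpiLC (1 sample per group) were deposited by the authors as lists of broad peaks. Per the study's methods, reads were trimmed with Trim Galore, aligned with BWA and processed with nf-core/atacseq, and the submitters' processing notes name MACS2 and mm10. For each peak the authors deposited a fold enrichment ratio, −log10 p-value, −log10 q-value and a display score, and peaks were called separately per sample down to a −log10 q of about 1.00. The score was not used. Read depth is not given in the sources used here, so its part in which peaks were called and how they ranked was not tested.

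Peaks of the 3 lists that overlapped were merged into regions with pandas 2.3.3, and a region was covered where a list had a peak overlapping it. Ranks used −log10 p, with the strongest 20000 peaks called strong. Thresholds were 20 percentage points of rank and 2-fold of width. Shares carry Wilson 95% intervals (scipy 1.17.1), which cover counting error only. Letters were searched on both strands of GRCm38. All 10 genes are named, with every promoter region, the 3 best-ranked regions, each region with a strong peak that another list lacks, and those whose rank differed most; a few further regions and the octamer were chosen after their values were seen. The scripts were tested on simulated peak lists. Genes, lists and thresholds were chosen with earlier results of these data known. Alternatives tried were windows of 10 kb, stricter q-values, a 50% overlap, other strong and rank thresholds, ranking by fold enrichment or within a chromosome, a wider motif window, and leaving out genes on chromosomes 6, 8 and 11.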

Additional observations from a re-analysis of the deposited data

How the results depend on the processing

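Of 65 repeats of 9 summary values, 43 stayed near the reported value and 22 moved; the causes were not tested. The share of regions in all 3 lists (33.4%) was 38.8% and 48.4% with peaks of a −log10 q of at least 2 and 5, and 17.6% with a 50% overlap. It was 28.7%, against 30.8% of all regions on the same chromosomes, at the 3 genes off chromosomes 6, 8 and 11. That in SOX2-OFF and CEpiLC alone (10.8%) was 7.81% at a −log10 q of 5 and 14.7% off those chromosomes, that in the Sox2 TetON samples alone 11.7% at a −log10 q of 5, and that in SOX2-ON and CEpiLC alone 0.746% and 0.781% at a −log10 q of 2 and 5 and 6.98% off those chromosomes. Strong peaks that another list lacked (6) came to 16 at a −log10 q of 5, 17 with a 50% overlap, 0 among the strongest 5000 and 79 among the strongest 50000. Regions with ranks 20 points apart (55 of 152) came to 35 of 90 with windows of 10 kb, 30 of 62 at a −log10 q of 5, 11 of 37 off those chromosomes and 93 of 152 at 10 points. Regions 2-fold apart in width (63 of 152) came to 32 of 104 and 9 of 62 at a −log10 q of 2 and 5 and 17 of 37 off those chromosomes. TCF/LEF letters (4.61% of the central 200 bp) were in the central 500 bp of 12.5% (8.15 to 18.7%), against 7.0% of all regions in all 3 lists. Of 97 single rank differences of 20 points, 87 held and 10 fell short when ranked within the chromosome. Ranked by fold enrichment 64 held, 25 fell short and 8 turned: SOX2-ON then stood above SOX2-OFF by 1.10 points and above CEpiLC by 5.72 at Axin2 27.7 kb downstream, above CEpiLC by 23.5 at Axin2 31.5 kb downstream, by 22.8 at Notum 34.4 kb upstream and by 5.70 and 3.33 at Rnf43 26.0 and 92.2 kb downstream. SOX2-OFF stood above CEpiLC by 16.5 at Tcf7 14.2 kb downstream and its difference was -2.03 at Nkd1 10.1 kb downstream. No paired analysis was possible because the 3 groups held a single sample apiece. A peak missing from a list was below that list's threshold and not shown to be closed chromatin.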
